A study of Mus musculus with 8 samples.

Results

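The BCL2 family decides whether a mitochondrion releases cytochrome c and starts the caspase cascade, and 10 of its mouse genes are described here: the pro-survival genes Bcl2, Bcl2l1, Mcl1, Bcl2a1b and Bcl2a1d, the effector Bak1, and the BH3-only genes Bcl2l11, Bid, Bad and Pmaip1. Each was read from the brightest row of the deposited array table that carries its symbol alone. Such a row was found for 8 of the 10 genes, among 22180 genes in all; the rows of Bcl2a1b and Bcl2a1d are annotated to several BCL2A1 copies and stand apart below. In T cells, the pro-survival proteins hold BAX and BAK1 in check. The BH3-only proteins relieve that restraint when cytokines are withdrawn, when antigen stimulation ends or when DNA is damaged. BCL2L11, better known as BIM, is the member that removes most activated CD8 T cells at the end of a response, and its balance with BCL2 is a known determinant of how long such cells live.

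The RNA came from PD-1hi effector CD8 T cells (PD-1hi and CD127low, with intermediate to high CD44, TCRb+ and CD8+, and negative for other lineages) sorted from spleens of female C57BL/6 mice that carried transplanted leukaemia cells of the Eµ-TCL1 model, in which an immunoglobulin enhancer drives the oncogene in B cells; the sorted T cells are the host's. Of the 8 arrays, 4 came from mice given an antibody that blocks the IL-10 receptor (anti-IL-10R) and 4 from mice given an isotype control antibody. Both groups carried the leukaemia, treatment began 3 weeks after transplantation and lasted 2 weeks, and the cells were taken at 5 weeks. The sources used here give neither the age of the mice nor whether each array is a separate animal. The p-values therefore cover only the spread among these arrays, which may be technical. The comparison asks what IL-10 receptor blockade altered in these T cells.

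The arrays had similar medians, 5.19 to 5.31 on the log2 scale. Isotype replicate 1 stood apart: its correlation with the other arrays over the 12019 tested genes was 0.915 to 0.929, against 0.962 to 0.986 among the other 7. The 8 genes of the sort include Il7r, whose product was selected against. Il7r read 4.34 on anti-IL-10R replicate 4, against 3.27, 3.41 and 3.38 on replicates 1 to 3. On isotype replicate 1 it read 4.47, the highest of the 8 arrays, against 3.08 to 3.48 on the other isotype arrays. Both high readings lift the mean of their own array. Over the 8 genes, the mean log2 signal was 10.25 to 10.39 on the anti-IL-10R arrays. It was 9.96 to 10.12 on the isotype arrays, with isotype replicate 1 lowest. That array also had the highest mean of the marker lists for monocytes and macrophages (9 of 10 genes with a row), neutrophils (8 of 8), NK cells (6 of 8), CD4 and regulatory T cells (6 of 6) and red cell precursors (3 of 8), and the lowest mean of the dendritic cell list (7 of 8), 5.51, against 5.55 to 5.70 on the anti-IL-10R arrays. Foxp3, the factor that defines regulatory T cells, read 7.97 there, against 5.08 to 5.64 on the anti-IL-10R arrays and 5.46 to 5.95 on the other isotype arrays. Other genes of that list did not follow it: Ikzf4, a factor of regulatory T cells, was at its lowest of the 8 arrays there (7.37), and Il2ra, the high-affinity IL-2 receptor chain, lay within the range of the others (6.05). Single genes of the monocyte and macrophage list and of the NK cell list also went both ways. Cd68 and Eomes were at their lowest of the 8 arrays on isotype replicate 1 (8.41 and 10.13). Lyz2 and Klrb1c were at their highest there (6.66 and 5.29). Many genes of these marker lists were dim. The filter used below, a mean of 5.24 over the 8 arrays, was passed by 5 monocyte and macrophage genes and 1 neutrophil gene. It was passed by 3 NK cell, 4 CD4 and regulatory T cell, 1 red cell precursor and 5 dendritic cell genes. B cell markers (12 of 13 genes with a row) averaged 5.25 to 5.43 on the anti-IL-10R arrays and 5.28 to 5.82 on the isotype arrays. That list holds Cd5, which was bright in these sorted T cells, far above its other genes. Cd5 read 9.57 to 10.41 with anti-IL-10R and 9.78 to 10.03 with isotype. The B cell marker mean was also fitted as a covariate, with which 0 of the 8 genes described passed the threshold and 4 of all tested genes did; the part of the other lists was not tested. The differences of the 8 genes are given with and without isotype replicate 1. An array signal of bulk RNA cannot tell fewer expressing cells from less RNA per cell.

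Mouse holds several copies of the BCL2A1 gene, whose product A1 is a pro-survival protein induced by NF-kappaB in activated lymphocytes. The copies are shown side by side for their likeness. Whether that likeness bears on which of them the array can name was not tested. Each line gives 80 bases upstream of the annotated transcript start, on chromosome 9 of GRCm38.p6 (RefSeq), 5′ to 3′ on the gene's strand, with capitals at the 7 positions where the 4 copies differ.
Bcl2a1a, chr9:88956820-88956899, plus strand: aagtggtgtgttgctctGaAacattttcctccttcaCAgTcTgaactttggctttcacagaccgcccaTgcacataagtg
Bcl2a1b, chr9:89199129-89199208, plus strand: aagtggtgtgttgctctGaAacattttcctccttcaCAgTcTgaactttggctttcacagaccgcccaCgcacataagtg
Bcl2a1c, chr9:114329925-114330004, plus strand: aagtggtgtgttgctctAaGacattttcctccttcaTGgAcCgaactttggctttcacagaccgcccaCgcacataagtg
Bcl2a1d, chr9:88731871-88731950, minus strand: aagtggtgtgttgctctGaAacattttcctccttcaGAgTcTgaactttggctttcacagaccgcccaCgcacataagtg
Over the aligned part of the 300-base promoter windows, Bcl2a1a and Bcl2a1b were identical at 99.2% of 256 positions and Bcl2a1b and Bcl2a1d at 96.5%. These are promoter sequences and not the probes, which were not used here.

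None of the 8 genes passed the threshold, a limma adjusted p below 0.05 over all 12019 tested genes. All 8 had passed the filter on dim genes (a mean log2 signal of at least 5.24 over the 8 arrays). The background was 2.53% of all tested genes past the threshold (148 higher and 156 lower), and 0 of 8 is near that share. Without isotype replicate 1 the background was 9.25%, and again 0 of the 8 genes passed. At an unadjusted p below 0.05, limma returned 1 of the 8, Bcl2, against a background of 20.0%. For none of the 8 genes did the groups stand fully apart, where 15.3% of all tested genes did so. The median difference over the 8 genes was 0.11 (anti-IL-10R minus isotype, log2), against 0.03 over all tested genes. Of the 8 genes 7 were higher in the anti-IL-10R mean, as were 54.7% of all tested genes. Leaving out isotype replicate 1 gave 6 of the 8 higher, and the matching share of all tested genes was not computed. The median of the 8 genes was then 0.03, against −0.007 over all tested genes without that array.

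**Figure D1:**
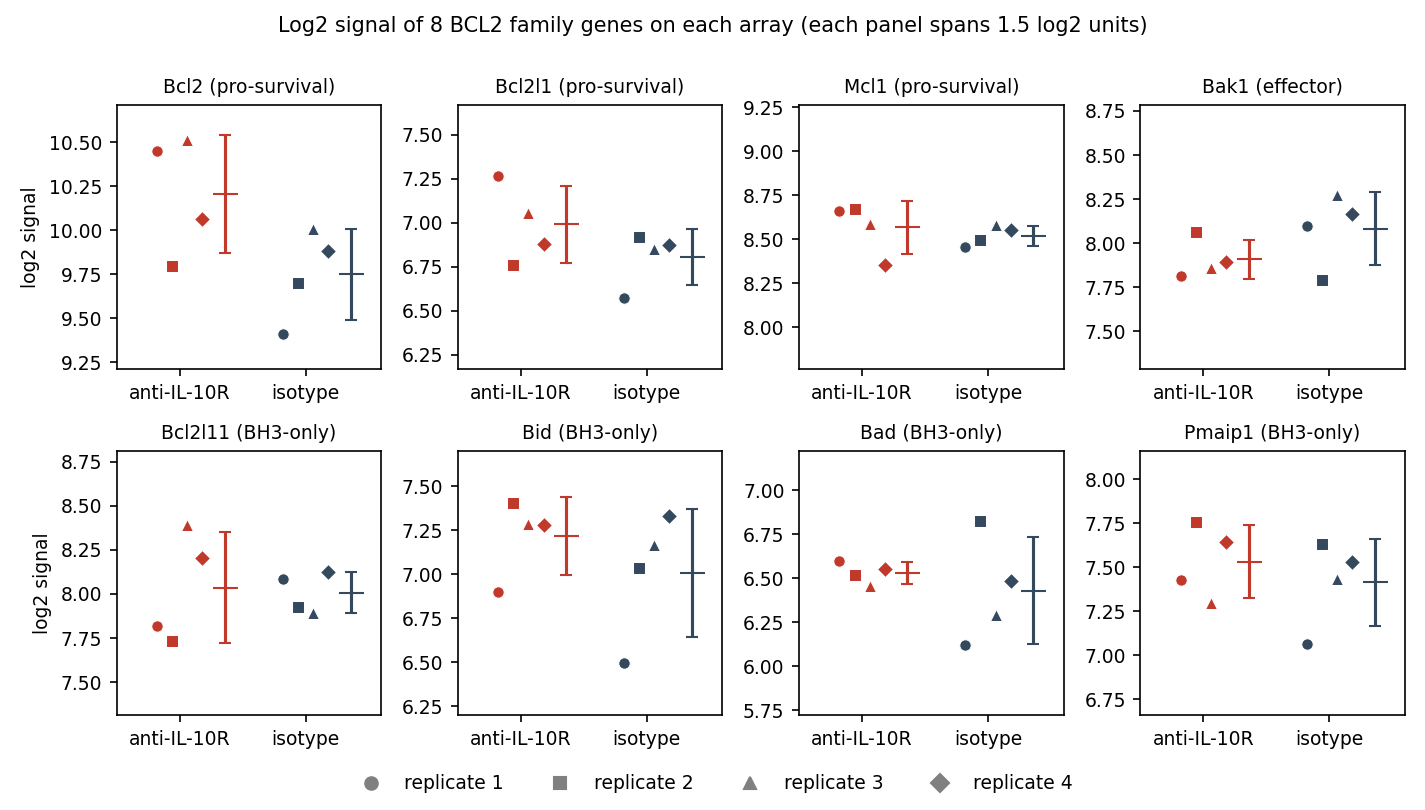
Log2 signal (vertical axis) of 8 BCL2 family genes on the 4 anti-IL-10R arrays (red, left) and the 4 isotype arrays (blue, right). Symbols mark the replicate number, the dash and bar beside each group are its mean and SD, and each panel spans the same range of 1.5 log2 units; the groups overlap in every panel, and isotype replicate 1 is the lowest isotype array in 6 of the 8.

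Bcl2, the founding pro-survival member, had the largest difference of the 8 when read from its brightest row. Its log2 signal was 10.45, 9.80, 10.51 and 10.06 on anti-IL-10R replicates 1 to 4, against 9.41, 9.70, 10.01 and 9.88 on isotype replicates 1 to 4. The anti-IL-10R arrays were uneven: replicates 1, 3 and 4 lay above every isotype array, replicate 4 by little, whereas replicate 2 lay within the isotype range. The means were 10.20 ± 0.34 (SD, n = 4) with anti-IL-10R and 9.75 ± 0.26 with isotype, a difference of 0.46 ± 0.19 (SE), or 1.37-fold (95% interval 1.02 to 1.84, limma adjusted p = 0.221). In size that difference exceeded those of 87.0% of tested genes. Without isotype replicate 1 it was 0.34 ± 0.18, and the interval, −0.05 to 0.74, then held 0 (limma adjusted p = 0.247). Leaving out anti-IL-10R replicate 2 instead gave 0.59. In a fit over all rows of the table and all 8 arrays, the interval of this row was −0.00089 to 0.91 and held 0. With both single-symbol rows of Bcl2 averaged, the difference was 0.20 (limma adjusted p = 0.501), below the 0.21 of Bid. The dimmer of these rows had a mean of 4.92, below the filter on dim genes. It read 5.96 on isotype replicate 1, against 4.57 to 4.68 on the other isotype arrays.

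Bcl2l1 encodes BCL-XL, the pro-survival protein that T cells induce on activation. It read 7.26, 6.76, 7.06 and 6.88 on anti-IL-10R replicates 1 to 4, against 6.57, 6.92, 6.85 and 6.87 on the isotype arrays. Within the anti-IL-10R group the order of the arrays was close to that of Bcl2, with replicates 1 and 3 highest and replicate 2 lowest. The difference was 0.19 ± 0.14 (SE; 95% interval −0.12 to 0.50, limma adjusted p = 0.496). Without isotype replicate 1 it was 0.11 ± 0.13, and without anti-IL-10R replicate 1 it was 0.10. Over the 8 arrays Bcl2l1 and Bcl2 had a Pearson r of 0.88, the highest of any 2 of the 8 genes. That value describes arrays which share the group difference and the low isotype replicate 1.

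Mcl1, a short-lived pro-survival protein that lymphocytes cannot do without, had the narrowest interval of the 8. Its values were 8.66, 8.67, 8.58 and 8.35 on the anti-IL-10R arrays, against 8.45, 8.50, 8.58 and 8.55 on the isotype arrays. The lowest array of all was anti-IL-10R replicate 4, and the isotype arrays lay close together. The difference was 0.05 ± 0.11 (SE; limma adjusted p = 0.856), and 0.02 ± 0.11 without isotype replicate 1. For the brightest row the 95% interval was −0.20 to 0.29. It leaves out changes of more than 1.22-fold upward and, on the downward side, levels below 0.87 of the isotype level. The difference turned negative, −0.030, under quantile normalization of the arrays, and was 0.11 with both Mcl1 rows averaged. The dimmer Mcl1 row differed by 0.18, with a wider interval of −0.25 to 0.60 in a fit over all rows of the table.

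The rows shared by A1 copies were bright and close to level. The row annotated to Bcl2a1b and Bcl2a1a together (transcript cluster 17520171) read 10.26, 10.35, 10.26 and 10.08 on the anti-IL-10R arrays, against 10.33, 10.31, 10.29 and 10.11 on the isotype arrays. The row annotated to Bcl2a1d, Bcl2a1a and Bcl2a1b (17529575) read 11.44, 11.59, 11.55 and 11.47 with anti-IL-10R, against 11.35, 11.62, 11.47 and 11.45 with isotype. Neither value belongs to 1 gene, and the groups overlapped in both rows. In a fit over all rows of the table, with a background of 0.498% of 20673 rows past the threshold, the differences were −0.02 ± 0.11 (SE; 95% interval −0.26 to 0.23) and 0.04 ± 0.10 (−0.19 to 0.27). Bcl2a1a and Bcl2a1c each had a row of their own. Bcl2a1a differed by 0.02 ± 0.10, with 9.71 ± 0.10 (SD, n = 4) on the anti-IL-10R arrays and 9.69 on average on the isotype arrays. Bcl2a1c was dimmer, with means of 5.87 with anti-IL-10R and 5.83 with isotype, and differed by 0.05 ± 0.13 (SE).

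**Figure D2:**
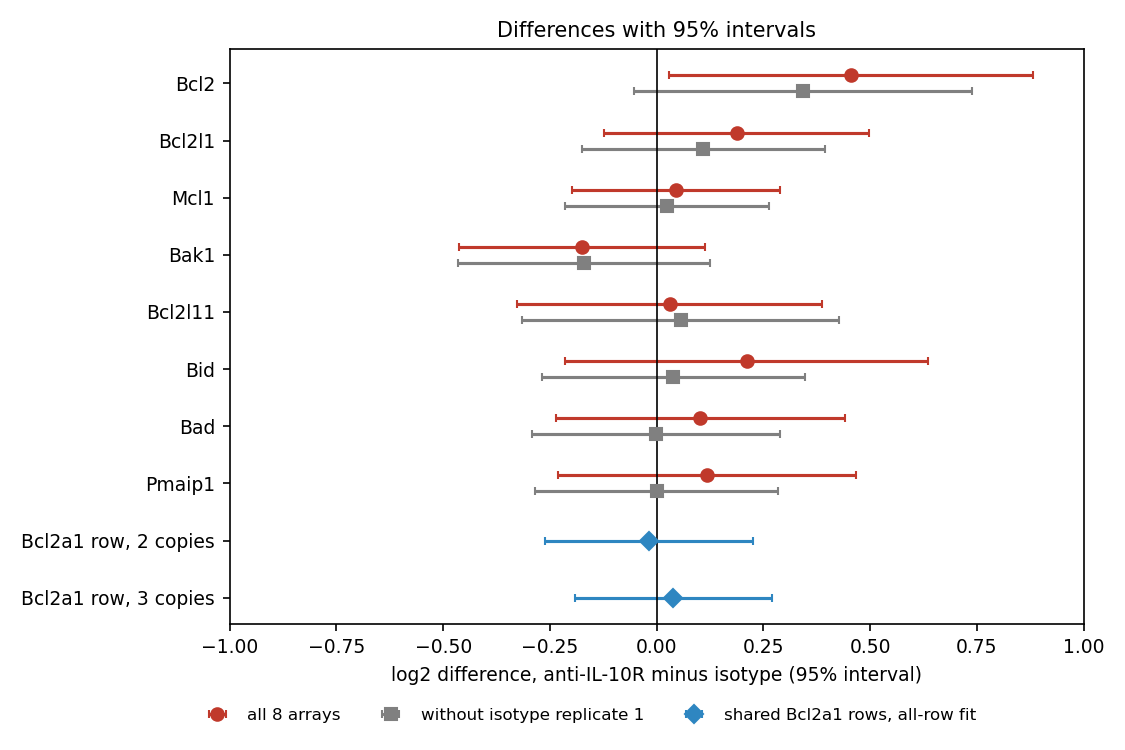
Log2 difference, anti-IL-10R minus isotype, with its 95% interval, for 8 BCL2 family genes and for 2 rows shared by BCL2A1 copies. Red circles use all 8 arrays, grey squares leave out isotype replicate 1 and blue diamonds come from the fit over all rows; only the interval of Bcl2 with all arrays lies clear of 0, and every interval stays within −1 to 1.

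Bak1, an effector that forms the pore in the outer mitochondrial membrane, was the 1 gene of the 8 with a lower mean after blockade. It read 7.81, 8.06, 7.86 and 7.89 on anti-IL-10R replicates 1 to 4, against 8.10, 7.79, 8.28 and 8.16 on isotype replicates 1 to 4. All isotype arrays but replicate 2 lay above every anti-IL-10R array, and isotype replicate 2 lay below them all. The difference was −0.17 ± 0.13 (SE; 95% interval −0.46 to 0.11, limma adjusted p = 0.491). It was −0.17 without isotype replicate 1 as well, and −0.27 without isotype replicate 2. Adjusted for the mean of the B cell markers, it was 0.028. Bax, the other main effector, was not analysed here.

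Bcl2l11, which encodes BIM, had the smallest difference. Its values were 7.82, 7.73, 8.39 and 8.21 on the anti-IL-10R arrays, against 8.09, 7.92, 7.89 and 8.13 on the isotype arrays. The anti-IL-10R arrays lay on both sides of the isotype group, replicates 1 and 2 below it and replicates 3 and 4 above it. Accordingly the SD was 0.31 with anti-IL-10R and 0.12 with isotype. The difference was 0.03 ± 0.16 (SE; limma adjusted p = 0.942), and the interval, −0.33 to 0.39, spans a level of 0.80 to 1.31 times that of isotype. Leaving out single arrays moved the difference between −0.088 and 0.13; it was 0.06 without isotype replicate 1, and negative without anti-IL-10R replicate 3 or 4 or isotype replicate 3.

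FOXO factors, chiefly FOXO3, are known to drive Bim transcription when growth factor signals fall. Of the 13 promoter windows listed for 9 of the 10 genes (250 bases before and 50 after each RefSeq start), 1 held the FOXO motif GTAAACA on either strand, in Bcl2l11, as did 3.65% of all 32851 windows. It is shown here from chr2:128125796-128125832 of GRCm38.p6, plus strand, with the motif, 227 to 221 bases before the start, in capitals.
Bcl2l11: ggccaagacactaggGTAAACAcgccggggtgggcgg
Foxo3, chosen after its value was seen, read 6.88, 7.28, 7.16 and 6.81 on the anti-IL-10R arrays, against 6.68, 6.19, 6.80 and 6.20 on the isotype arrays. Its groups did not overlap, and its difference of 0.56 ± 0.18 (SE) did not pass (limma adjusted p = 0.12). The motif TTCNNNGAA, bound by STAT3 downstream of the IL-10 receptor, was in none of the 13 windows and in 8.30% of all. The NF-kappaB consensus was in 1, a Bcl2l1 window, and in 8.46% of all. These matches describe letters in short windows and say nothing of binding.

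The intervals of the other 3 BH3-only genes held 0. Bid, which caspase 8 cleaves to link death receptors to the mitochondrion, read 6.90, 7.41, 7.28 and 7.28 on the anti-IL-10R arrays, against 6.49, 7.04, 7.16 and 7.33 on the isotype arrays. Its difference of 0.21 ± 0.19 (SE; limma adjusted p = 0.589) rested on isotype replicate 1, without which it was 0.04 ± 0.14. Bad, which growth factor kinases inactivate by phosphorylation, read 6.60, 6.52, 6.45 and 6.56 with anti-IL-10R, against 6.12, 6.82, 6.29 and 6.48 with isotype. The anti-IL-10R arrays lay close together inside a wider isotype range, with SDs of 0.06 and 0.30. Its difference was 0.10 ± 0.15 (limma adjusted p = 0.754), and −0.0013 without isotype replicate 1. Pmaip1, which encodes NOXA, a p53-induced partner of MCL1, read 7.43, 7.76, 7.30 and 7.64 with anti-IL-10R, against 7.06, 7.63, 7.44 and 7.53 with isotype. It differed by 0.12 ± 0.16 (limma adjusted p = 0.722), and by 9.9e-05 without isotype replicate 1.

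Each of the 8 intervals lay within −1 to 1, which is a 2-fold change either way, and over all 8 they ran from −0.46 to 0.88. A 2-fold change of any of these genes was thus outside its 95% interval, taken gene by gene. How small a change each interval leaves out differed by gene, and a p above the threshold does not show that levels were equal. In size, 3 of the 8 differences (Bcl2, Bcl2l1 and Bid) exceeded the median absolute difference of all tested genes, 0.18.

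**Figure D3:**
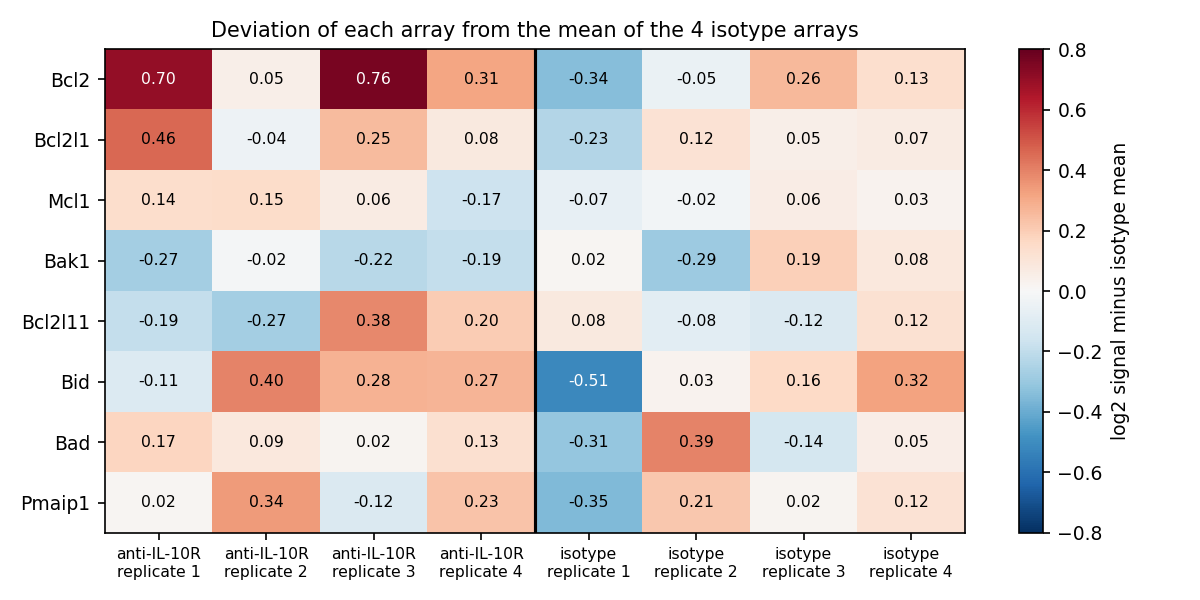
Deviation of the log2 signal on each array (columns, anti-IL-10R left and isotype right) from the mean of the 4 isotype arrays, for 8 BCL2 family genes (rows); red is above and blue below that mean. Bcl2 is high on anti-IL-10R replicates 1 and 3, Bcl2l11 on replicates 3 and 4, and isotype replicate 1 is low for 6 of the genes.

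The balance between the opposing groups was set out within each array, as deviations from the isotype mean, so that no gene's level was compared with that of another. Bcl2 relative to Bcl2l11 deviated by 0.89, 0.32, 0.38 and 0.11 on anti-IL-10R replicates 1 to 4, against −0.42, 0.03, 0.38 and 0.01 on isotype replicates 1 to 4. The anti-IL-10R mean was 0.43 above the isotype mean, or 0.29 without isotype replicate 1, and the groups overlapped through isotype replicate 3. The 3 pro-survival genes with a row of their own averaged 0.05 to 0.43 on the anti-IL-10R arrays and −0.21 to 0.12 on the isotype arrays. The 4 BH3-only genes averaged −0.03 to 0.21 and −0.27 to 0.15. The first set relative to the second spanned −0.13 to 0.46 with anti-IL-10R and −0.12 to 0.14 with isotype, with an anti-IL-10R mean 0.11 higher. Because these genes were chosen with results known, no p-value is attached to the balance.

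Among the remaining BCL2 family genes, 12 of 14 had a row of their own and 8 entered the test, of which 0 passed the threshold and 5 had a higher anti-IL-10R mean, with a median difference of 0.02. The smallest p-values belonged to Hrk, a BH3-only gene known from neurons, and to Bcl2l13 and Bcl2l14, less studied relatives. Hrk and Bcl2l14 were below the filter on dim genes, with means of 3.94 and 4.11 with anti-IL-10R and 3.63 and 3.90 with isotype. Bcl2l13, a mitochondrial membrane protein, differed by −0.36 ± 0.19 (SE; limma adjusted p = 0.33), with anti-IL-10R replicate 4 lowest at 6.15. The p53 target Bbc3, which encodes PUMA, and Bmf, chosen after their values were seen, differed by −0.08 ± 0.13 and −0.04 ± 0.12.

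Downstream of the mitochondrion, 1 of 14 tested genes of the apoptosome, the caspases and their inhibitors passed the threshold, and it fell, beside 2.53% of all tested genes. Birc5 encodes survivin, an IAP family member of the mitotic chromosomal passenger complex that is expressed in dividing cells. It read 9.09, 8.71, 8.94 and 8.26 on the anti-IL-10R arrays, against 9.48, 9.85, 9.47 and 9.88 on the isotype arrays, so every anti-IL-10R array was lower. Its difference was −0.92 ± 0.19 (SE), 0.53 times the isotype level (95% interval 0.39 to 0.71, limma adjusted p = 0.042, and 0.0178 without isotype replicate 1; it missed the threshold without a filter on dim genes, at 0.0591). Cycs, cytochrome c itself, differed by −0.26 ± 0.10 (adjusted p = 0.181) and Birc2, which encodes cIAP1, by 0.67 ± 0.28 (adjusted p = 0.224), both with limma and with groups that did not overlap. Isotype replicate 1 read 7.55 for Birc2, against 8.73 to 9.05 on the other isotype arrays and 9.14 to 9.35 on the anti-IL-10R arrays. Without that array the difference of Birc2 was 0.34 ± 0.11 (limma adjusted p = 0.086).

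Of the 6 tested genes that act on MCL1 protein turnover, none passed. Huwe1, the ubiquitin ligase also called MULE that marks MCL1 for degradation, read 9.85, 9.69, 9.84 and 9.76 with anti-IL-10R, against 9.15, 9.35, 9.47 and 9.52 with isotype. Every anti-IL-10R array was higher, and the difference of 0.42 ± 0.11 (SE) had a limma adjusted p of 0.0833. Gsk3b, a kinase that primes MCL1 for degradation, differed by 0.27 ± 0.12 (adjusted p = 0.242), and Btrc, a substrate adaptor of the SCF ligase, by 0.60 ± 0.30 (adjusted p = 0.307). Isotype replicate 1 was the lowest array for all 3, and without it the differences were 0.34 for Huwe1, 0.19 for Gsk3b and 0.27 for Btrc.

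Of the 9 tested genes of the death receptor route that leads to BID, none passed with all arrays. Fasl, the ligand of the FAS receptor, read 10.46, 10.53, 10.58 and 10.45 on the anti-IL-10R arrays, against 10.13, 10.11, 10.14 and 10.04 on the isotype arrays. Its difference was 0.40 ± 0.09 (SE; limma adjusted p = 0.0571). Without isotype replicate 1 it was 0.41 and passed (adjusted p = 0.0247), 1 of 9 beside 9.25% of all tested genes. Cflar, which encodes the caspase 8 inhibitor cFLIP, differed by 0.37 ± 0.14 (adjusted p = 0.192) and Tnfrsf1a, a TNF receptor, by 0.35 ± 0.17 (adjusted p = 0.295). Casp8, chosen after its value was seen, differed by 0.03 ± 0.16.

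Of 22 tested transcription factors and kinases known to act on the family, none passed with all arrays, and without isotype replicate 1 Id2 rose while Myc, E2f1 and Myb fell, 4 of 22 beside 9.25% of all tested genes. Id2, a regulator needed for survival of effector CD8 T cells, differed by 0.41 ± 0.10 (SE; limma adjusted p = 0.0579, and 0.0311 without that array). Myc, which sensitises cells to apoptosis and drives growth, differed by −0.59 ± 0.16 (0.0799, and 0.0296) and E2f1, a cell cycle factor that can induce BH3-only genes, by −0.45 ± 0.13 (0.096, and 0.027). Myb, known as an activator of Bcl2, differed by −0.73 ± 0.13 without isotype replicate 1 (limma adjusted p = 0.0128). With all arrays its difference was −0.33, since isotype replicate 1 read 6.78, against 7.48 to 7.90 on the anti-IL-10R arrays and 8.23 to 8.57 on the other isotype arrays.

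Receptors of survival cytokines, which maintain Bcl2 and Mcl1 in T cells, gave 0 of 6 tested genes past the threshold with all arrays. Il10ra, the ligand-binding chain of the blocked receptor, differed by 0.51 ± 0.13 (SE; limma adjusted p = 0.0648), and passed without isotype replicate 1 (0.0413), 1 of 6 beside 9.25% of all tested genes. Il15ra, which presents IL-15, differed by 0.48 ± 0.13 (adjusted p = 0.0835), and Il2rb, the signalling chain shared by IL-2 and IL-15, by 0.26 ± 0.10 (adjusted p = 0.193). For each of the 3 every anti-IL-10R array was above every isotype array. The same held for 5 of the 8 genes of the sort, among them Cd3e, Cd8a and Pdcd1. Groups stood fully apart, in either direction, for 15.3% of all tested genes. Il7r, whose product the sort selected against, was below the filter on dim genes.

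**Figure D4:**
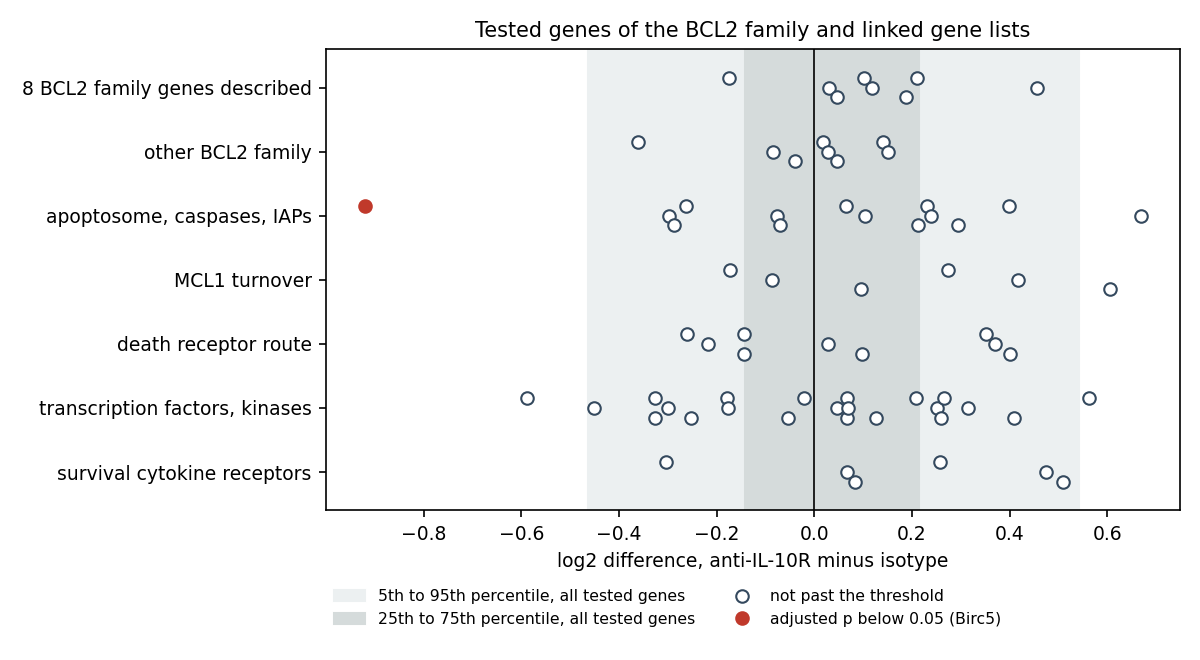
Log2 difference, anti-IL-10R minus isotype, of each tested gene of the 8 BCL2 family genes described and of 6 linked gene lists (rows). Shaded bands give the middle of all 12019 tested genes; the filled point at −0.92 is Birc5, the only gene shown that passed the threshold, and the 8 genes of the top row lie between −0.17 and 0.46.

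The tested genes whose pattern over the 8 arrays was most like that of Bcl2, by Pearson's r, were Ahnak (0.97), Galnt2 (0.97) and Enho (0.96), with r of 0.94 to 0.97 when isotype replicate 1 was left out. For Bcl2l11 they were Rbfox3 (0.94), Carmil3 (0.88) and Fam107b (0.88). For Mcl1 they were Zfp954 (0.97), Il10rb (0.96) and Spns1 (0.94). These are the highest of 12019 comparisons over 8 arrays and are given as a description. Of these 9 genes, none passed the threshold, and the largest difference, that of Ahnak, was 0.43 (limma adjusted p = 0.129).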

How the data were processed

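Per the labels, RNA of 8 sorted T cell samples was hybridised to GeneChip Mouse Gene 2.0 ST arrays. The authors deposited log2 signals, 1 per transcript cluster (41345 rows). The submitters' processing notes name Affymetrix Power Tools; the algorithm and the normalization behind the values are unstated. Scale was read from the range, 1.57 to 13.89. Scanner files were not used, so values carry no detection call; precision is limited by the number of arrays.

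A platform annotation gave 1 symbol to 23521 rows, several to 1814 and none to 16010; the brightest row per gene was kept. Genes with a mean of at least 5.24, the median row mean, were tested (12019) with limma 3.58.1 in R 4.3.3 (lmFit, eBayes, two-sided, Benjamini-Hochberg over all tested genes). SEs and 95% intervals are limma's. Differences are anti-IL-10R minus isotype. The fit was checked on simulated data. The genes described, the lists and the tests were chosen with earlier results of these data known. The text names the 10 genes, list members past the threshold, the 3 smallest p-values per list, and the 3 genes most like Bcl2, Bcl2l11 and Mcl1 (Bcl2a1b, also planned, had no row of its own), leaving out predicted and unnamed genes. Promoter windows are RefSeq's, GRCm38.p6.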

Additional observations from a re-analysis of the deposited data

Results flagged for a closer look

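In 60 groups of 4 arrays (the genes named by rule, and the other rows of these genes) the gap of the highest or lowest array from the rest was divided by the group's range and set against Dixon's critical value; 4 groups passed it, and chance alone gives about 1 in 20. The dimmer row of Bcl2 read 5.96 on isotype replicate 1, against 4.57 to 4.68 on the other isotype arrays. On that same array the brighter Bcl2 row was the lowest of all 8. E2f1 read 6.63 on isotype replicate 1, against 6.91 to 6.96 on the others of its group. Birc2 read 9.35 on anti-IL-10R replicate 2, against 9.14 to 9.16 on the others of its group. Il10ra read 9.997 on isotype replicate 4, against 9.88 to 9.90 on the others of its group.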

How the results depend on the processing

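Under 18 alternatives to the whole fit, 0 of the 8 genes passed the threshold each time, whereas the count over all genes, 304 (148 higher, 156 lower), varied widely. It was 145 without a filter on dim genes, 460 with a stricter filter (means of at least 6.97, which leaves out Bcl2l1 and Bad), 631 (204 higher, 427 lower) after quantile normalization, 117 (42 higher, 75 lower) with arrays centred on their medians, 1469 with array weights, 4 with B cell markers as a covariate and 103 over all rows, an alternative chosen after seeing the data. With single arrays left out it ran from 3 (isotype replicate 4) to 1112 (isotype replicate 1), with 48 and 50 for isotype replicates 2 and 3 and 62, 10, 8 and 12 for anti-IL-10R replicates 1 to 4. With the replicate number as a block it was 4. Deviations of same-numbered arrays correlated at −0.05, 0.12, 0.02 and −0.16. With 4 arrays per group, such values cannot settle whether same-numbered arrays were paired. Signs turned for 6 genes. Mcl1 (−0.030) and Bcl2l11 (−0.041) turned under quantile normalization, and Bcl2l11 also with centred arrays (−0.014). Bad (−0.092) and Bak1 (0.028, from −0.17) turned with the B cell covariate, and Pmaip1 with array weights (−0.011). Bcl2 turned only in its dimmer row (−0.061, also chosen later), which was below the filter on dim genes, whereas its brightest row differed by 0.46. With single arrays left out, Bcl2l11 ran from −0.088 to 0.13 and Bad from −0.0013 to 0.23. The cause of these turns was not tested. Bcl2 ran from 0.34 to 0.59 with single arrays left out and was 0.20 with its rows averaged, and its adjusted p over all alternatives from 0.159 to 0.501.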
